A study of Homo sapiens with 6 samples.

Results

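The unfolded protein response of the endoplasmic reticulum (ER) is described here through 10 genes, chosen by symbol from the 38557 genes listed in each count file: the stress sensors ERN1, ATF6 and EIF2AK3, the transcription factor XBP1, the ER chaperones and folding enzymes HSPA5, HSP90B1, PDIA4, DNAJB9 and SDF2L1, and the ER-associated degradation gene HERPUD1. All 10 were found and all 10 passed the filter on low counts, with 181 to 45107 reads per gene and library. The 6 libraries came from cardiomyocytes made by differentiating WTC11, a widely used human iPSC (induced pluripotent stem cell) line, and the labels name no genetic change in it. The medium was RPMI plus the supplement B27 in 3 cultures and DMEM plus fatty acids in the other 3. The design compares those media. The labels call the cultures biological replicates without saying whether they came from separate differentiations, and they give neither the make-up of the media nor the time spent in them.

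The ER is where secreted and membrane proteins fold. When unfolded proteins build up there, the chaperone BiP (the product of HSPA5) leaves the luminal side of the sensors, and each sensor then opens its own arm. IRE1 (ERN1) splices the XBP1 transcript so that it encodes an active transcription factor, ATF6 travels to the Golgi and is cut to release another one, and PERK (EIF2AK3) phosphorylates eIF2alpha, which slows translation and favours ATF4. The first pair of arms raises chaperones and degradation factors, while ATF4 raises amino acid and stress genes and is also reached from other kinases. Splicing of XBP1, cleavage of ATF6 and phosphorylation of PERK are not measured by counts per gene.

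The response is known to act through short promoter elements, which are shown because several members were high in the same library. ERSE, the ER stress element bound by cleaved ATF6 with the factor NF-Y, was searched as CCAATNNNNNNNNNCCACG, and ERSE-II as ATTGGNCCACG, on both strands of the RefSeq promoter windows (GRCh38.p14, 250 bases before to 50 bases after each start). These elements can overlap, since the CCAAT of the one is the reverse complement of the ATTGG of the other. An exact ERSE lay in 27 of 35116 windows (0.0769%) and an exact ERSE-II in 19 (0.0541%). Of the 10 members, all matched to at least 1 window, 3 held an exact ERSE and another 2 an exact ERSE-II. They are given on the strand of the gene, with the element in capitals and 5 flanking bases on each side.
HSPA5 ERSE: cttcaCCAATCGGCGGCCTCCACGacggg
HSP90B1 distal ERSE: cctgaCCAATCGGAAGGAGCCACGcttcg
HSP90B1 proximal ERSE, reverse orientation: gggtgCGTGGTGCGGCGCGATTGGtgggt
XBP1 ERSE: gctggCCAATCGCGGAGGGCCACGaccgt
HERPUD1 ERSE-II: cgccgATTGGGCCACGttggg
SDF2L1 ERSE-II, reverse orientation: ggaagCGTGGACCAATcaaaa

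The stretches lie at chr9:125241386-125241414 on the minus strand (HSPA5), chr12:103930211-103930239 and chr12:103930316-103930344 on the plus strand (HSP90B1), chr22:28800598-28800626 on the minus strand (XBP1), chr16:56932020-56932040 on the plus strand (HERPUD1) and chr22:21642109-21642129 on the plus strand (SDF2L1). The HSPA5 element began 66 bases before the start of transcription and the XBP1 element 52 bases before it. The HERPUD1 window also held CARE, the element of the ATF4 family, searched as TGATGNAA on both strands and present in 3.62% of all windows. The element UPRE (TGACGTGG, in 0.729% of windows) was in no window of a member, which says only that those letters are not in these windows.

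Each library held 23232324 to 31035389 gene counts, so the least abundant member was still read by more than 100 counts everywhere. All 12 cardiomyocyte markers were detected, with a summed level of 32613 to 38687 CPM (gene counts scaled to library size, with edgeR's TMM factors) in RPMI plus B27 and 25591 to 36301 CPM in DMEM plus fatty acids, led by MYL7 and MYH7. The sums hide opposite shifts. MYH7 was at 7544 to 13359 CPM against 2493 to 6082 CPM, and MYH6 at 3503.5 to 5653 CPM against 6759.5 to 10620 CPM. Of the 12 markers, 4 had a fitted value above 0 in DMEM plus fatty acids, and 0 were called. Markers of other cells were present beside them. Fibroblast and stromal markers summed to 5036 to 9256 CPM in RPMI plus B27 and to 914 to 2191 CPM in DMEM plus fatty acids (COL3A1 and COL1A2 the most abundant), with 7 of 12 called lower and 0 higher. Smooth muscle markers summed to 1572 to 1979 CPM against 316 to 1147 CPM (CNN1, ACTA2), and epicardial markers to 107 to 293 CPM against 44.3 to 89.7 CPM (KRT19, TBX18). The sums of endothelial markers (54.8 to 249 CPM against 119 to 471 CPM, KDR and EGFL7), hepatic and endoderm markers (15.5 to 305 CPM against 7.58 to 47.6 CPM, SERPINA1 and APOA1) and pluripotent cell markers (8.0 to 15.3 CPM against 6.59 to 15.7 CPM, DNMT3B and POU5F1) overlapped between media. The endothelial sum was mostly KDR, which had a fitted log2 fold change of 1.26 in DMEM plus fatty acids. EGFL7 went the other way without overlap, at 9.77 to 25.5 CPM against 4.48 to 7.62 CPM. So did TEK, which reached at most 1.13 CPM. None of these 3 tested endothelial markers was called. The calls above are from edgeR without a replicate block. With the block on replicate number described below, edgeR called KDR higher (adjusted p 0.0245). It called 9 fibroblast and stromal, 3 smooth muscle, 2 cardiomyocyte, 2 epicardial and 2 hepatic and endoderm markers lower. That fit called 4.78% of all tested genes. In bulk RNA, fewer cells of a type and less RNA per cell cannot be told apart.

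The members spanned a wide range of abundance. Per kilobase of exon (GENCODE 29 exon unions), the highest levels in RPMI plus B27 were those of HSPA5, the major ER chaperone of the HSP70 family, at 133 ± 30.8 CPM per kb, and HSP90B1, the ER member of the HSP90 family, at 128 ± 5.47 CPM per kb (SD, n = 3 each). PDIA4, a protein disulfide isomerase, followed at 48.5 ± 9.44, DNAJB9, a J-domain co-chaperone of BiP, at 35.1 ± 6.75 and XBP1 at 27.2 ± 2.06 CPM per kb. ATF6 stood at 10.4 ± 1.25, SDF2L1, a partner of ER J-domain proteins, at 8.24 ± 2.27, and HERPUD1, a membrane scaffold of the degradation complex, at 7.40 ± 0.560 CPM per kb. The kinases were lowest, EIF2AK3 at 3.13 ± 0.628 and ERN1 at 1.12 ± 0.125 CPM per kb. In that order, HSPA5 and HSP90B1 overlapped in range, as did PDIA4 with DNAJB9, DNAJB9 with XBP1, ATF6 with SDF2L1, and SDF2L1 with HERPUD1, whereas EIF2AK3 and ERN1 were apart from each other and from the rest.

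Between media, none of the 10 members passed the test. The median log2 fold change of the members (the DMEM medium relative to the RPMI medium) was 0.58, with 7 of 10 above 0, against a median of 0.01 and 51.0% above 0 among all 16107 genes tested. By edgeR's quasi-likelihood test 0 of 10 had an adjusted p under 0.05, where 1.36% of all tested genes did. At an unadjusted p under 0.05, 3 members were higher in DMEM plus fatty acids, where 7.70% of all tested genes were. The same 3 members, HERPUD1, DNAJB9 and PDIA4, had no overlap between media, with every DMEM library above every RPMI library. That held for 12.8% of all tested genes. The DESeq2 Wald test called 2 members higher, HERPUD1 and DNAJB9 (7.05% of genes with an adjusted p called), and limma-voom called 0.

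**Figure D1:**
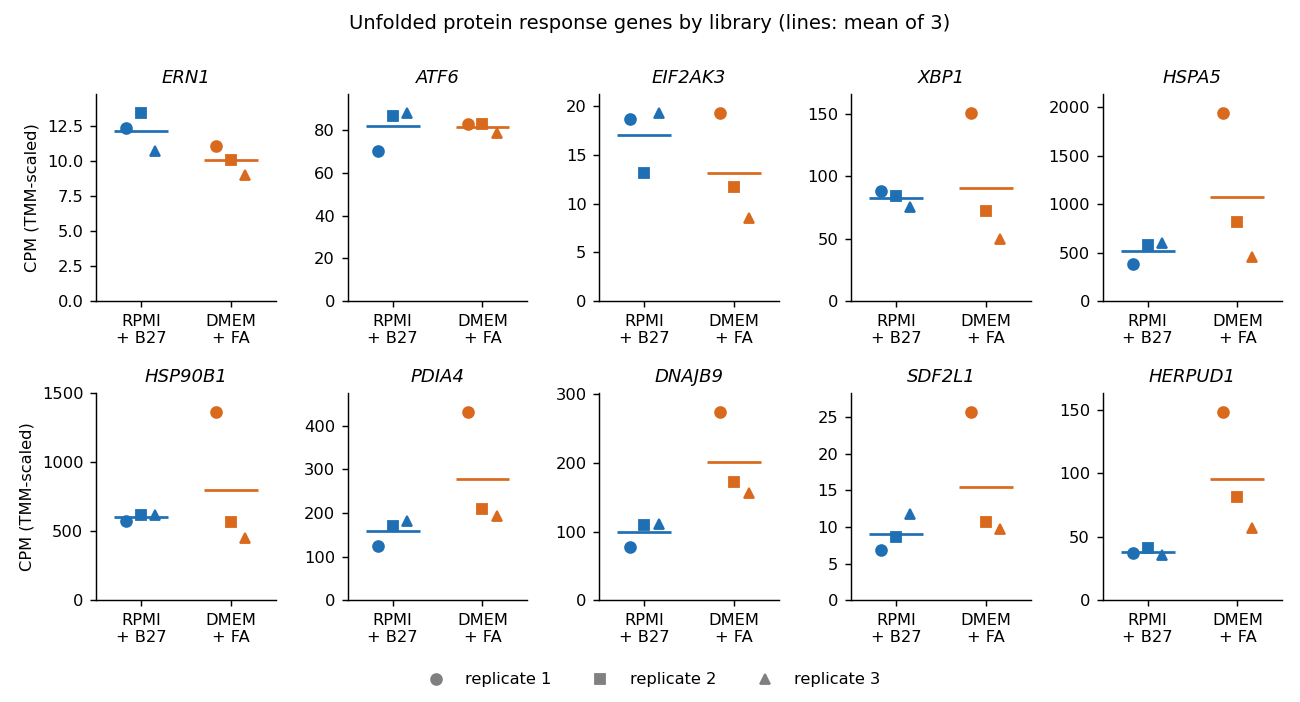
TMM-scaled CPM of each member in the 3 RPMI plus B27 libraries (blue) and the 3 DMEM plus fatty acids (DMEM + FA, orange) libraries, with marker shape for the replicate number, lines for the mean of 3 and every vertical axis starting at 0. DMEM plus fatty acids replicate 1 is the highest of the 6 libraries for XBP1, HSPA5, HSP90B1, PDIA4, DNAJB9, SDF2L1 and HERPUD1, and not for ERN1, ATF6 or EIF2AK3.

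The sensors had fitted log2 fold changes from -0.37 to -0.01, and none passed the test. ERN1 was at 12.4, 13.5 and 10.8 CPM in RPMI plus B27 and at 11.1, 10.1 and 9.04 CPM in DMEM plus fatty acids, in the order of replicates 1 to 3. Its ranges overlapped, and the fitted log2 fold change was -0.28 ± 0.18 (SE; edgeR adjusted p 0.456). ATF6 was at 70.3, 86.6 and 88.1 CPM and at 82.9, 82.6 and 78.6 CPM in the same order. The DMEM libraries lay within the RPMI range, with a log2 fold change of -0.01 ± 0.12 (edgeR adjusted p 0.986). EIF2AK3 was at 18.7, 13.1 and 19.3 CPM against 19.3, 11.7 and 8.54 CPM, a wide overlap (-0.37 ± 0.32, edgeR adjusted p 0.581). Exons of antisense genes cover 15.1% of the EIF2AK3 exons in GENCODE 29, and the strand setting of the counting is not given in the sources used here, so its level is less certain.

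XBP1 was at 87.9, 83.9 and 75.7 CPM in RPMI plus B27 and at 150.8, 71.8 and 49.4 CPM in DMEM plus fatty acids. Replicate 1 in DMEM was thus the highest of all 6 libraries and the other two DMEM libraries were the lowest. The fitted log2 fold change of total XBP1 was 0.14 ± 0.37 (edgeR adjusted p 0.881), and without that library it was -0.45 ± 0.19 (adjusted p 0.371).

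Among the chaperones, HSPA5 was at 383, 578 and 602 CPM in RPMI plus B27 and at 1942, 819.8 and 455 CPM in DMEM plus fatty acids. A single DMEM library was at 3.05 times the mean of the other two, and the lowest DMEM library lay inside the RPMI range. The RPMI libraries averaged 521 ± 120.3 CPM and the DMEM libraries 1072 ± 775 CPM (SD, n = 3 each). The log2 fold change of 1.04 ± 0.49 did not pass the test (edgeR adjusted p 0.323). HSP90B1 was at 572, 615 and 618 CPM against 1364, 569 and 451 CPM. Replicate 1 again stood above all others, and the remaining DMEM libraries were below the RPMI range (0.40 ± 0.39, edgeR adjusted p 0.634). Exons of other genes cover 7.60% of the HSP90B1 exons, 2.79% on the same strand, where MIR3652 lies.

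PDIA4 was at 123.7, 170.8 and 182 CPM against 432, 209 and 193.8 CPM. The ranges did not overlap, although replicates 2 and 3 in DMEM were close to the highest RPMI library (0.81 ± 0.32, edgeR adjusted p 0.256). SDF2L1 was at 6.82, 8.59 and 11.7 CPM against 25.7, 10.7 and 9.78 CPM, with overlap outside replicate 1 (0.76 ± 0.41, edgeR adjusted p 0.380).

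For DNAJB9 and HERPUD1, replicates 2 and 3 in DMEM were also well above the RPMI range. DNAJB9 was at 77.4, 110.1 and 111.0 CPM against 274.8, 172.8 and 156.7 CPM. Every DMEM library exceeded every RPMI library, with a log2 fold change of 1.02 ± 0.25 (edgeR adjusted p 0.0998). HERPUD1 was at 37.2, 41.4 and 35.8 CPM against 148.2, 80.9 and 56.6 CPM. It had the highest fitted value of the 10, 1.32 ± 0.33 (edgeR adjusted p 0.104). Over the 13 alternative fits the adjusted p of HERPUD1 ran from 0.00430 to 0.220 and that of DNAJB9 from 0.00869 to 0.206, each with 2 of 13 below the threshold. No test compared these members with the others. Antisense exons of PNPLA8 and THAP5 cover 6.45% of the DNAJB9 exons.

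**Figure D2:**
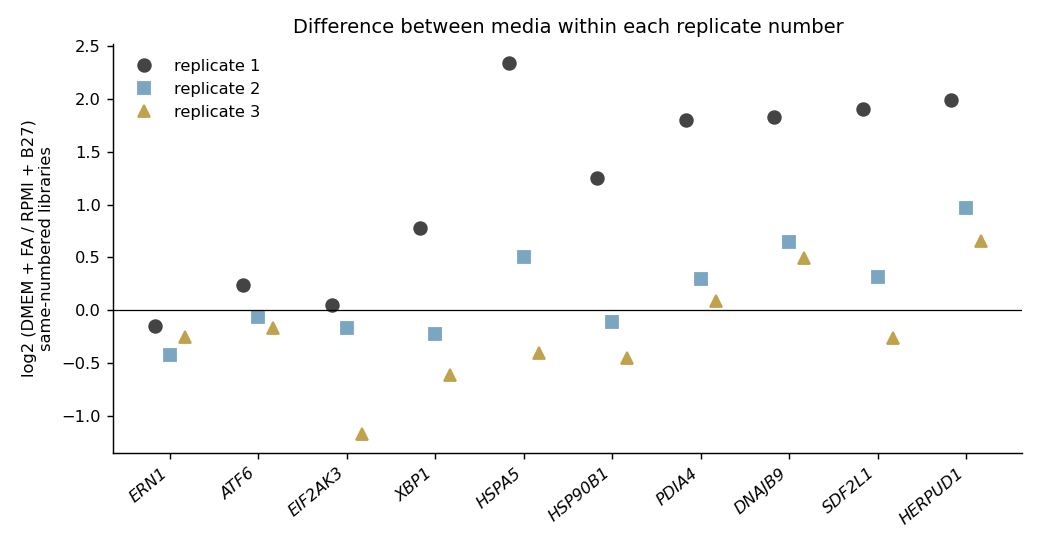
Log2 ratio of CPM in DMEM plus fatty acids (DMEM + FA) to CPM in RPMI plus B27, between libraries with the same replicate number, for each member, with 1 marker shape per replicate. HERPUD1, DNAJB9 and PDIA4 lie above 0 in all 3 replicates, while HSPA5 runs from 2.34 in replicate 1 to -0.41 in replicate 3.

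Within replicate numbers, which pair the libraries by the check described with the processing, the size of the difference varied with the pair. The median over the 10 members was 1.53 on the log2 scale in pair 1, 0.11 in pair 2 and -0.26 in pair 3, against 0.01, 0.00 and 0.02 for all tested genes. HSPA5 had log2 ratios of 2.34, 0.50 and -0.41 in pairs 1 to 3. HERPUD1 had 1.99, 0.97 and 0.66, and DNAJB9 had 1.83, 0.65 and 0.50. ERN1 was below 0 in all 3 pairs (-0.15, -0.42 and -0.25). When edgeR's fit blocked on these pairs, 0 of the 10 members were called, where 4.78% of all tested genes were. The smallest adjusted p values were 0.0562 for HERPUD1 and 0.0951 for DNAJB9. In that fit 2 of 10 members had an unadjusted p under 0.05, as did 3861 of all 16107 tested genes.

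The wide spread in DMEM plus fatty acids came with a single library. DMEM plus fatty acids replicate 1 was the highest of the 6 libraries for 7 of 10 members, and for 19.5% of all tested genes. It was at least 2-fold above each of the other DMEM libraries for 5 members, HSPA5, HSP90B1, XBP1, SDF2L1 and PDIA4, as it was for 1.86% of all tested genes. HERPUD1 and EIF2AK3 came next, 0.87 and 0.72 above the nearer of those libraries on the log2 scale, while ATF6 was level with it at 0.01. Both measures were chosen after the values had been seen. RPMI plus B27 replicate 1, its same-numbered partner, was compared with the mean of the other RPMI libraries, also after the values had been seen. The median log2 difference was -0.21 for the members and 0.003 for all tested genes. Members ran from -0.62 for HSPA5 to 0.23 for EIF2AK3.

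Other features of that library stood beside these values. Its reads assigned to no gene were 7.57% of all counted rows, the highest of the 6 (5.44% to 7.35% elsewhere), its 23232324 gene counts the lowest, and its mitochondrially encoded genes 6.64% of gene counts, inside the range of 5.39% to 7.53% elsewhere. Its fibroblast and stromal markers summed to 914 CPM, the lowest of the 6, with DCN at 0 counts, and its cardiomyocyte markers to 34938 CPM. The part of any of these in the high chaperone counts was not tested.

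**Figure D3:**
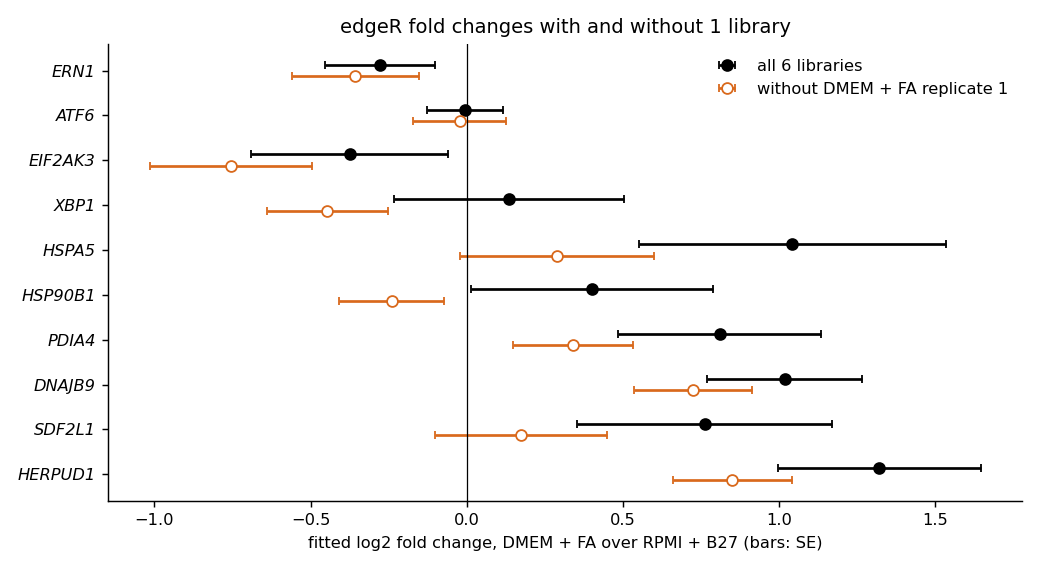
Fitted edgeR log2 fold change of each member with its standard error, DMEM plus fatty acids (DMEM + FA) relative to RPMI plus B27, from all 6 libraries (filled) and from the 5 libraries without DMEM plus fatty acids replicate 1 (open). HSP90B1 and XBP1 change sign, and HSPA5 goes from 1.04 to 0.29, while HERPUD1 and DNAJB9 stay at 0.85 and 0.72.

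Without DMEM plus fatty acids replicate 1 the median log2 fold change of the members was 0.08 instead of 0.58, and 5 of 10 were above 0. HSPA5 went to 0.29 ± 0.31, SDF2L1 to 0.17 ± 0.27 and PDIA4 to 0.34 ± 0.19. HSP90B1 changed sign, to -0.24 ± 0.17. HERPUD1 (0.85 ± 0.19) and DNAJB9 (0.72 ± 0.19) kept more than the others, and EIF2AK3 moved further down, to -0.75 ± 0.26. By edgeR 0 of 10 members were called in that fit of 5 libraries, which called 0.0665% of all genes. The unadjusted edgeR p was 0.00338 for HERPUD1, 0.00736 for DNAJB9 and 0.0241 for EIF2AK3. Of the 16548 genes tested in that fit, 2324 had an unadjusted p under 0.05.

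The wider folding machinery of the ER, a list of 20 further chaperones, isomerases and co-chaperones, was also mostly above 0. All 20 were tested and 18 were above 0, with a median log2 fold change of 0.32. By edgeR 0 were called, and by DESeq2 1. At an unadjusted p under 0.05 by edgeR there were 5, 4 of them higher. Of all 16107 tested genes 2848 were under 0.05 in the same fit, 1240 of them higher. That is the background for the unadjusted counts of every pathway list. DMEM plus fatty acids replicate 1 was the highest library for 16 of the 20, and without it the median was 0.12. The 2 genes with the smallest p went in opposite directions. ERO1A, the oxidase that recharges disulfide isomerases, was at 126.9 ± 61.7 CPM in RPMI plus B27 and 48.8 ± 10.4 CPM in DMEM plus fatty acids (-1.38 ± 0.35, edgeR adjusted p 0.109, and 0.0355 with the replicate block). DNAJC3, a BiP co-chaperone, was at 52.5 ± 8.01 against 81.2 ± 23.2 CPM (0.63 ± 0.22, edgeR adjusted p 0.20).

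The degradation list, 18 genes of the ubiquitin ligase and retrotranslocation complexes that clear misfolded ER proteins, was centred near 0 (median 0.04, 10 of 18 above 0, 0 called by edgeR, 1 by DESeq2, and 4 at an unadjusted p under 0.05, 3 of them higher). UBE2J1, an ER ubiquitin-conjugating enzyme, was at 106.3 ± 21.2 against 63.3 ± 2.70 CPM (-0.75 ± 0.16, edgeR adjusted p 0.0722, and 0.0438 with the replicate block), and OS9, a lectin that delivers glycoproteins for degradation, at 212.8 ± 28.7 against 293.9 ± 14.2 CPM (0.47 ± 0.14, edgeR adjusted p 0.148). The 22 genes of translocation into and export from the ER had a median of -0.01, with 10 above 0 and 0 called by edgeR (1 by DESeq2, and 5 at an unadjusted p under 0.05, 1 of them higher). KDELR3, a receptor that returns ER residents from the Golgi, was at 33.5 ± 9.55 against 19.4 ± 0.114 CPM (-0.79 ± 0.21, edgeR adjusted p 0.120). SEC61G, a subunit of the translocation channel, had -0.61 ± 0.18 with an edgeR adjusted p of 0.146, and 0.0390 with the replicate block. The block called SEC24D and LMAN1 lower as well (adjusted p 0.0355 and 0.0491), which are named here after their values were seen. The fibroblast and stromal markers were also lower in DMEM plus fatty acids, with a median log2 fold change of -2.84, and their part in the lower values of these secretory genes was not tested.

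Regulators of the response (14 genes, among them ATF6B, the site proteases that cut ATF6 and the NF-Y subunits) had a median of 0.06 with 0 called by edgeR or DESeq2 and 3 at an unadjusted p under 0.05. The 2 smallest p values were those of CREB3L2 (-0.33 ± 0.10, edgeR adjusted p 0.166) and CREB3L4 (0.54 ± 0.19, edgeR adjusted p 0.194), both membrane-bound transcription factors related to ATF6. The other eIF2alpha kinases, eIF2B subunits and the constitutive phosphatase subunit (10 genes) had a median of -0.07, with 0 called by edgeR or DESeq2 and 2 at an unadjusted p under 0.05, EIF2B2 (0.34 ± 0.13, edgeR adjusted p 0.234) and EIF2AK2 (-0.30 ± 0.12, edgeR adjusted p 0.249).

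The list downstream of PERK and ATF4 had the highest median of the pathway lists, 0.80, with 9 of 14 above 0. By edgeR 1 of the 14 was called, NUPR1, a stress-induced chromatin protein (adjusted p 0.0427), and 9 had an unadjusted p under 0.05, 8 of them higher. NUPR1 was at 0.301, 0.213 and 0.0746 CPM in RPMI plus B27 and at 7.75, 1.81 and 3.05 CPM in DMEM plus fatty acids. It held as few as 2 counts in a library, so its fitted fold depends on the prior count and is not given. Its edgeR adjusted p was 0.0854 without DMEM plus fatty acids replicate 1, and the adjusted p ran from 5.34e-08 to 0.134 over the alternatives, DESeq2 included, 5 of 12 of which called it. DESeq2 called 5 of the 14. With the replicate block 3 were called higher, NUPR1 (adjusted p 0.0138), TRIB3, a pseudokinase induced by ATF4 (0.0274), and CHAC1, a glutathione-degrading enzyme (0.0238). The last pair lies outside the naming rule and was added after its values were seen. DMEM plus fatty acids replicate 1 was the highest library for 11 of these 14 genes, and without it the median was 0.54. ATF4 itself was at -0.04 ± 0.23 (edgeR adjusted p 0.945). These targets also answer to kinases other than PERK, and no test compared this list with the members.

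**Figure D4:**
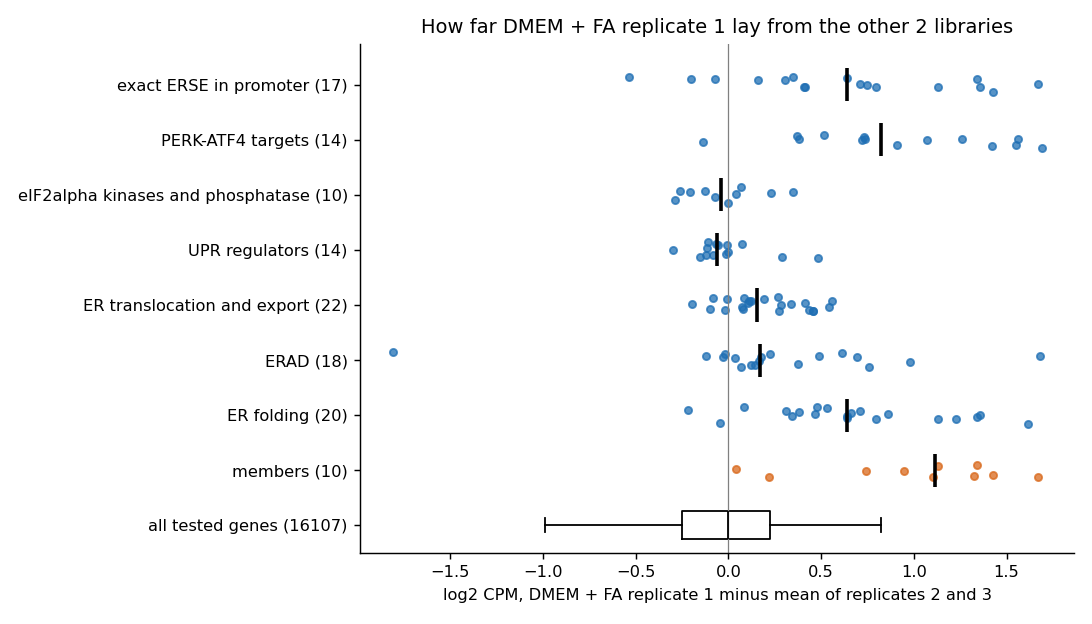
Log2 CPM in DMEM plus fatty acids (DMEM + FA) replicate 1 minus the mean of replicates 2 and 3, for each gene of the named lists (points, with the median as a bar) and for all 16107 tested genes (box of quartiles with whiskers from the 5th to the 95th percentile). The members have a median of 1.12, the ER folding list 0.64 and the genes with an exact ERSE 0.64, while the eIF2alpha list and the UPR (unfolded protein response) regulators sit near 0, with medians of -0.04 and -0.06.

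A list defined by sequence alone was also read by its levels in DMEM plus fatty acids replicate 1. The elements were shown because members were high in that library, and the measure was chosen after the values had been seen. The shares below are therefore a description and not independent support. Of 12007 tested genes with a RefSeq promoter window, 17 held an exact ERSE, among them HSPA5, HSP90B1 and XBP1 and, of the ER folding list, CALR, CANX, CRELD2, ERO1B and PDIA6. DMEM plus fatty acids replicate 1 was the highest library for 13 of the 17 (76.5%), and for 10 of the 14 that are not members (71.4%), against 19.0% of all tested genes with a window. Those 10 include the genes just named from the ER folding list, which were already counted there. Among genes in no list, that library was the highest for ALG12, EIF2A, FICD, LOC105371382 and TRIM5. It was not the highest for SERP1, SYNPO, TMEM120A or ZNF17. The median log2 fold change of the 17 between media was 0.48, with 14 above 0. Without that library it was 0.26, with 10 above 0. The only gene of the 17 that was called was SYNPO, an actin-associated protein, which fell (-1.93 ± 0.30, edgeR adjusted p 0.0402). The 14 tested genes with an exact ERSE-II, including HERPUD1 and SDF2L1, had a median of -0.11, and that library was the highest for 4 of them. The 357 tested genes with CARE had a median of 0.02 and the 145 with UPRE one of 0.01. Of these, DMEM plus fatty acids replicate 1 was the highest library for 23.0% and 22.8%. With 1 mismatch allowed in the fixed letters of ERSE, 304 genes matched, with a median of 0.04, and that library was the highest for 28.0% of them. A match describes letters in a window and not a site in use.

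The likeness of the other members to HSPA5 over the libraries depended on DMEM plus fatty acids replicate 1. The points share each library's scaling and other traits, so r is given as a description. Over all 6 libraries Pearson's r of log2 CPM with HSPA5 was 0.95 for PDIA4 and SDF2L1, 0.90 for HSP90B1, 0.89 for HERPUD1, 0.87 for DNAJB9 and 0.75 for XBP1, and it was 0.43, 0.32 and -0.06 for ATF6, EIF2AK3 and ERN1. Without that library the values over the 5 remaining libraries were 0.76 and 0.72 for PDIA4 and SDF2L1, 0.36 for HSP90B1, 0.59 for HERPUD1, 0.65 for DNAJB9 and 0.04 for XBP1, and they were 0.72, -0.14 and -0.17 for ATF6, EIF2AK3 and ERN1. The sensor ATF6 was then level with SDF2L1 and above the other members except PDIA4. Among the 10027 tested genes whose mean level reached 10 CPM, the 5 most like HSPA5 over the 6 libraries were FAR1 (0.993), TMEM129 (0.992), NSDHL (0.992), MANF (0.989) and KIF21A (0.986). MANF, a secreted ER stress protein of the folding list, was at 38.4, 51.9 and 53.2 CPM in RPMI plus B27 and at 154.5, 60.1 and 42.1 CPM in DMEM plus fatty acids. NSDHL, an enzyme of cholesterol synthesis, was at 29.1, 39.7 and 36.3 against 122.4, 55.3 and 29.4 CPM. FAR1 had a small range, from 53.6 to 72.0 CPM, so likeness in shape was not likeness in size.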

How the data were processed

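Polyadenylated RNA of 3 RPMI plus B27 and 3 DMEM plus fatty acids cultures was sequenced after strand-keeping library preparation, per the labels. The authors deposited a table of unnormalized counts by gene symbol for each library. Reads were aligned with STAR to hg38 and counted with HTSeq, per the submitters' processing notes. Versions, annotation and strand setting are not given in the sources used here. The deposited tables hold separate totals for multiply aligned reads (3.05% to 4.10% of all entries), ambiguous reads (3.90% to 4.15%) and reads in no gene (5.44% to 7.57%), so overlapping genes can be undercounted. Library sizes and tests used gene entries only.

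Counts were tested over all genes with edgeR 4.0.16 (R 4.3.3) by the quasi-likelihood test, after filterByExpr (minimum count 10, minimum total 15; 16107 genes) and TMM scaling, without covariates. P-values were adjusted by Benjamini-Hochberg over all tested genes at 0.05, and each standard error is the log2 fold change divided by the root of its F. The script was tested on simulated data. DESeq2 1.42.0, limma-voom 3.58.1, other scalings and filters, a replicate block and leaving out each library were the alternatives. Log2 CPM used a prior count of 2. Deviations of same-numbered libraries from their medium's mean correlated across genes at 0.31, 0.43 and 0.37, so the numbers from the titles were taken as pairing libraries. Other combinations were at -0.24 to -0.14. Because deviations within a medium sum to 0, positive values for same-numbered libraries pull the others below 0. The negative values are thus no separate evidence. If replicates share a differentiation, p-values measure only the spread between these libraries.

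Exon lengths and overlaps came from GENCODE 29 (GRCh38). Promoter windows came from RefSeq. No protein sequence table was used, so a planned list of proteins with an ER retrieval signal was not analysed here. Genes named by rule were the 10 members and, per pathway list, called genes (up to 4) or else the 2 of smallest p, plus the 5 most like HSPA5, the 2 most abundant markers per cell type and called genes of the exact ERSE and ERSE-II lists. Outside this rule, and with values known, MYH6, DCN, TEK, ATF4, SEC24D, LMAN1, TRIB3, CHAC1, ATF3 and the uncalled exact ERSE genes were named. For the other promoter lists only medians and shares are given. The members and lists were chosen with earlier results of these data known.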

Additional observations from a re-analysis of the deposited data

How the results depend on the processing

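The number of members called was 0 with all 6 libraries by edgeR and in 11 of 13 alternatives, and 2 (HERPUD1 and DNAJB9, both higher) without a count filter and by the DESeq2 Wald test. Leaving out single libraries gave 0 each time. The members' median log2 fold change of 0.58 stayed above 0 in all 13 alternatives. When single libraries were left out it ran from 0.08, without DMEM plus fatty acids replicate 1, to 0.85. The SD of the medians of the 3 pairs, 0.94, is larger than the median itself. Every move was smaller than that SD, which therefore cannot show that the median is stable. Over all genes, the 219 calls became 539 without a filter, 119 with at least 10 counts in every library, 1237 by DESeq2 and 770 with the replicate block, and 3 to 131 without single libraries. Scaling by total counts moved the median of all genes from 0.01 to 0.12 and that of the members to 0.67. The signs of the smallest differences were not stable. ATF6 went from -0.01 to 0.10 with total counts, 0.0064 without a filter, 0.0014 by limma-voom, 0.00077 with the replicate block, and -0.10 to 0.054 without single libraries. XBP1 went from 0.14 to -0.026 by limma-voom, -0.021 with the replicate block, and -0.45 to 0.44 without single libraries. HSP90B1 went from 0.40 to a range of -0.24 to 0.69 without single libraries. For the reversals of XBP1 and HSP90B1, the negative values without a library were those without DMEM plus fatty acids replicate 1. For other settings the cause was not tested. The block changed no call of a member. The members held at least 181 counts in every library, and each medium had 3 replicates. The part of depth or of replicate number in the lack of calls was not tested.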
